A study of Mus musculus with 12 samples.

Results

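The 41 genes described here encode ligands, receptors, signal transducers, inhibitors and targets of the TGF-β and BMP pathway. They were taken from a list of names, out of 21900 protein-coding genes of the RefSeq table (GRCm38.p6), and a gene counted as marked when an m6A peak on its strand overlapped its span (on either strand for Nog, Lefty1, Lefty2 and Id1, whose strand was not known). Of the 41, 37 held a peak in at least 1 of the 6 peak lists and 4 (Nodal, Lefty1, Lefty2 and Id1) held none. m6A, a methyl mark on adenosines of mRNA, had been mapped with an m6A antibody on fragmented mRNA, with 1 peak list for each of 3 libraries of mouse spermatogonial stem cells (SSCs) and 3 libraries of iNSCs, neural stem cell-like cells made from SSCs in culture. SSCs, which renew themselves and give rise to sperm, had been grown on mitotically inactivated STO fibroblast feeders in serum-containing medium with GDNF (20 ng/mL), LIF, EGF and basic FGF (10 ng/mL). For iNSCs, SSCs had been separated by differential plating, moved to laminin, given SSC medium with 1 µM retinoic acid for 24 h, and then kept in a neural medium with N2, B27, 20 ng/mL basic FGF and 10 µM SB431542. The labels give no genotype, strain or age, do not say whether the 3 replicates were separate cultures, and name the opposite cell type in 1 field of all 12 samples. The sample titles were followed. Of 12 germ cell markers, 9, 6 and 8 held a peak in lists titled SSC and 1, 1 and 2 in those titled iNSC. Of these markers, 6 (among them Ddx4 and Stra8) were marked in all 3 SSC lists and no iNSC list. That share was 11.3% over all genes with a peak. Etv5 went the other way, with 288, 0 and 342 covered bases in SSCs and 1400, 2927 and 548 in iNSCs. Gfra1 held a peak in iNSC replicate 3 alone, and Uchl1 held none. The neural markers did not follow the titles in the same way. Of 12, Pax6 alone was marked in the 3 iNSC lists and no SSC list, whereas Sox2, Msi1 and Cdh2 were marked in the 3 SSC lists and no iNSC list, and Nes had more covered bases in SSCs (5026 to 5031 against 2920 to 3809).

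In this pathway, secreted dimers bring together type II and type I receptor kinases, and the type I receptor phosphorylates receptor-regulated Smads, which join Smad4 and enter the nucleus. TGF-β, activin and nodal signal mainly through Smad2 and Smad3, BMPs through Smad1, Smad5 and Smad9, while Smad6, Smad7 and the Smurf ubiquitin ligases restrain the signal and Id1, Id2 and Id3 are classic BMP targets. SB431542 blocks the type I receptors encoded by Tgfbr1, Acvr1b and Acvr1c and spares those encoded by Bmpr1a, Bmpr1b and Acvr1. Combined inhibition of such receptors is widely used to direct cells to a neural fate. BMP and activin signals also act on spermatogonia in the testis. A peak needs a transcript as well as its methylation. Without the inputs, which are not analysed here, loss of the transcript and loss of the mark cannot be told apart. In such bulk samples fewer cells of a type and less RNA per cell cannot be told apart either.

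The pathway genes held peaks more often than protein-coding genes at large, in both cell types. A peak was found in 33, 30 and 30 of the 41 genes in SSC replicates 1, 2 and 3 (75.6% ± 4.22, SD, n = 3) and in 25, 25 and 26 in iNSC replicates 1, 2 and 3 (61.8% ± 1.41, n = 3). All protein-coding genes had shares of 42.5% ± 4.65 and 30.9% ± 1.31, so the gap between cell types was 13.8 percentage points for the pathway and 11.6 for all genes. The SSC lists are longer, with 19728 to 27597 peaks against 13913 to 16060. When each list was cut to equal length, 13913 peaks by score, the pathway's gap turned to -7.32 points, with 20, 24 and 21 genes in SSCs and 25, 24 and 25 in iNSCs. Over all genes the gap was then 0.521 points. The lowest score kept was then 109.5 to 156.4 in SSCs and 50.02 to 83.75 in iNSCs. The score is the authors' own value per peak, with no unit stated, and is used here only to rank peaks within a list.

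**Figure D1:**
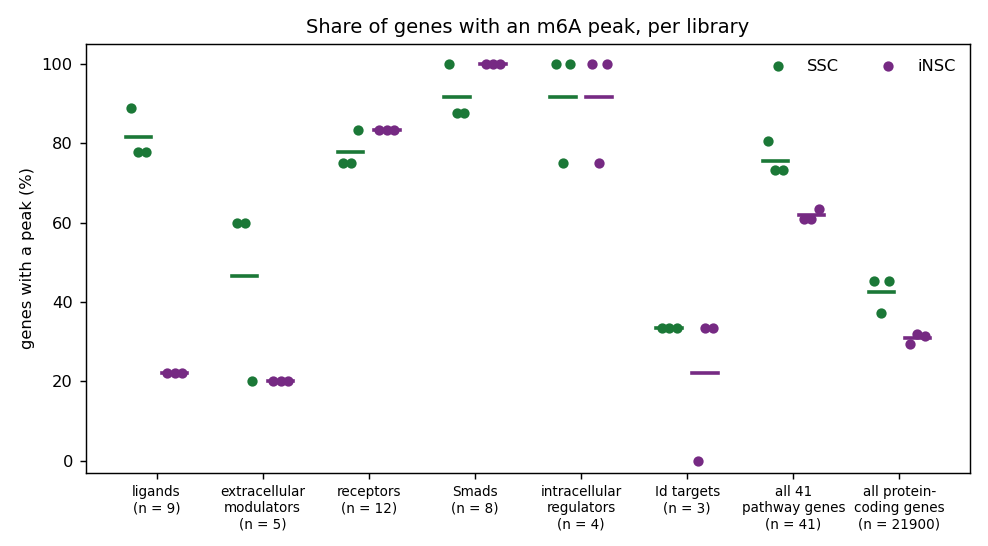
Share of genes with an m6A peak (y axis, percent) in each library, for the pathway genes by role, for all 41, and for all protein-coding genes; each point is 1 library and each horizontal tick the mean of 3. The ligands stand at 77.8% to 88.9% in SSCs and 22.2% in each iNSC library, while receptors and Smads lie at 75% or above in all 6.

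The roles differed from each other in this respect. Ligand genes with a peak numbered 8, 7 and 7 of 9 in the SSC lists and 2 of 9 in each iNSC list. Receptor genes numbered 9, 9 and 10 of 12 in SSCs and 10 in each iNSC list, and Smad genes 8, 7 and 7 of 8 against 8 in each. Intracellular regulators stood at 4, 3 and 4 of 4 in both groups, and the 3 Id genes at 1 in each SSC list against 0, 1 and 1. At equal list length the ligand counts were 4, 5 and 4 against 2 in each, still without overlap, and the receptor counts were 4, 7 and 6 against 10 in each. With only the upper 50% of scores in every list, the ligand counts were 4, 2 and 4 against 2 in each. Because the genes were chosen with results of these data known, these shares carry no p-value.

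**Figure D2:**
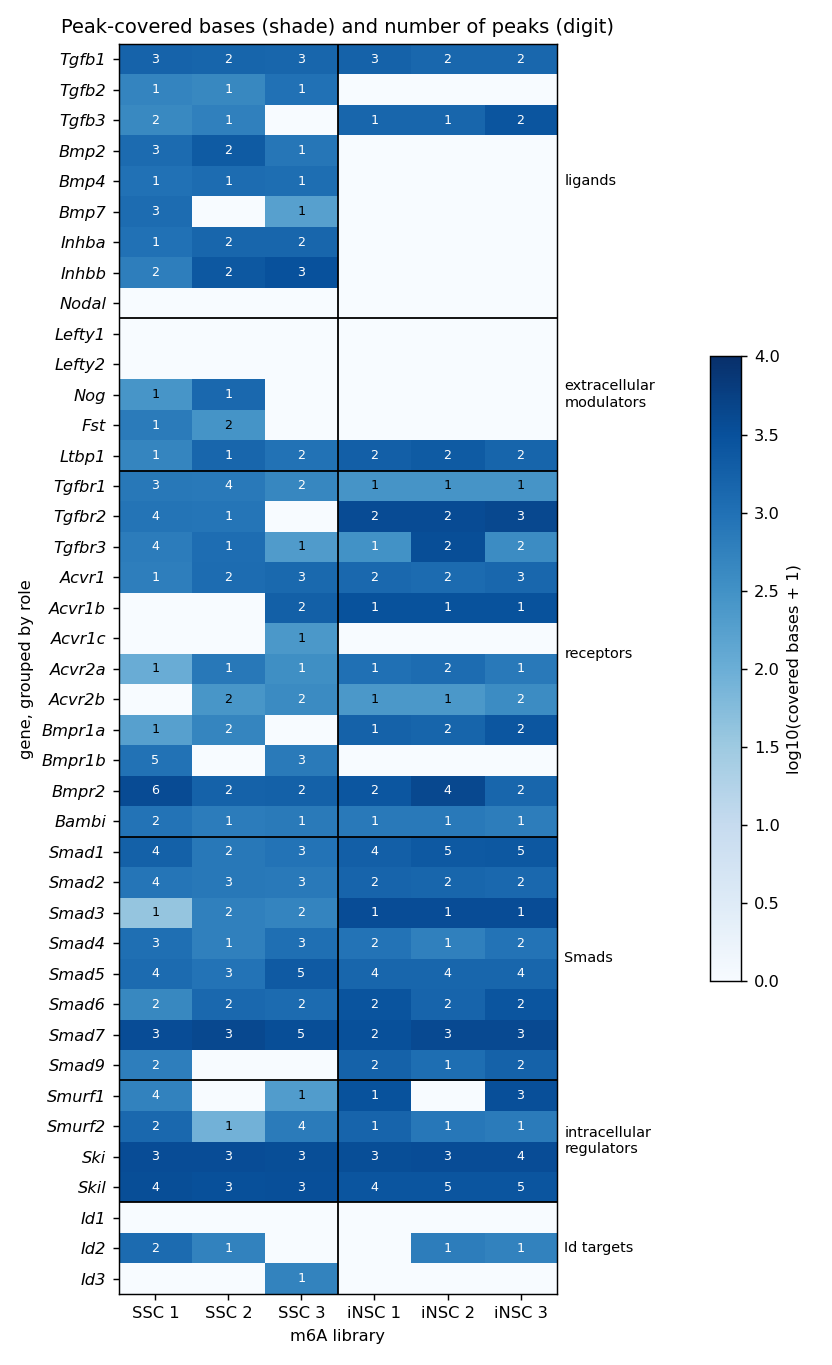
Bases of each gene covered by peaks (shade, log10 of covered bases plus 1) and number of peaks (digit; blank where there is none) for the 41 genes in rows, grouped by role, and the 6 libraries in columns. The iNSC columns are blank for 7 of the 9 ligands, whereas most receptors and all 8 Smads are filled in all 3.

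Of the 37 genes with a peak, 5 were SSC-only, meaning a peak in all 3 SSC lists and in no iNSC list, and all 5 encode ligands. The SSC-only share among the 13192 protein-coding genes that held any peak was 11.3%, so the count over all 37 is near the background. No pathway gene was iNSC-only, against 2.22% of all genes with a peak (293 genes). This call changed with the peaks kept: at equal list length Tgfb3, Tgfbr2 and Acvr1b were iNSC-only (3 genes, against 6.91% of all genes), and in the better-scoring 50% Tgfb3 was (against 4.52%).

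Inhba and Inhbb encode the βA and βB subunits that form activins and inhibins. Peaks covered 969, 1471 and 1471 bases of Inhba in SSC replicates 1, 2 and 3, and 614, 2436 and 3152 bases of Inhbb, with none in any iNSC list. All SSC libraries marked both genes and no iNSC library did. The best Inhba peak stood at within-list score percentiles of 89.5, 83.8 and 72.6, and Inhba stayed SSC-only at equal list length and in the better-scoring 50%. A stretch on chromosome 13, 16026243 to 16027211, was called with identical edges in the 3 SSC lists, and a region from 16017182 to 16017683 in SSC replicates 2 and 3. Inhbb varied more between libraries. Its long region toward the 3′ end, on chromosome 1 from 119415532 to 119418097, was called in SSC replicates 2 and 3 over 1952 and 2566 bases. The only merged region with peaks in the 3 SSC lists, from 119420627 to 119421110, covered 225, 484 and 11 bases. In it the peaks of replicates 1 and 3 did not overlap each other and were joined through that of replicate 2.

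Bmp2 and Bmp4 encode closely related BMPs, and Bmp4 is known as a differentiation signal for spermatogonia. Bmp4 held 1 peak per SSC list, covering 972, 1188 and 1108 bases at the 3′ edge of the gene span (chromosome 14, 46383525 to 46384712). Bmp2 was covered over 1237, 2155 and 805 bases, of which 974, 1090 and 805 lay in a region near its 3′ end (chromosome 2, 133560874 to 133562016). Tgfb2, a TGF-β isoform, had the lowest-ranked peaks, at percentiles of 23.3, 13.1 and 1.83, over 501, 443 and 994 bases on chromosome 1 from 186624609 to 186625606. None of these 3 genes held a peak in an iNSC list. At equal length Bmp2 kept a peak in SSC replicates 1 and 2, Bmp4 and Inhbb in replicates 2 and 3, and Tgfb2 in none.

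The other 4 ligand genes had other patterns. Tgfb1 was marked in all 6 lists, with 1640, 1516 and 1464 covered bases in SSCs and 1677, 1383 and 1383 in iNSCs, and the 2 ranges overlapped. Tgfb3 went the other way from Tgfb2, with 433, 579 and 0 bases in SSCs and 1461, 1461 and 2657 in iNSCs. In the 3 iNSC lists its peak ran from the gene start over the first 1461 bases of the span with the same edges, at percentiles of 71.3 to 76.0, whereas SSC replicate 1 held only 300 bases of it. Bmp7 had peaks in SSC replicates 1 and 3 alone (3 and 1), and Nodal in none.

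RefSeq promoter sequence was at hand for 4 of the 5 SSC-only ligands. Their 250 bases before the annotated start are shown because these genes share a peak pattern. Capitals mark matches to CAGAC or its reverse complement GTCTG, the core of the element bound by TGF-β Smads. The start of Tgfb2 and of Inhba in that table lies inside the gene span, so other starts exist for both genes.
Tgfb2 (chr1:186705990-186706239, minus strand): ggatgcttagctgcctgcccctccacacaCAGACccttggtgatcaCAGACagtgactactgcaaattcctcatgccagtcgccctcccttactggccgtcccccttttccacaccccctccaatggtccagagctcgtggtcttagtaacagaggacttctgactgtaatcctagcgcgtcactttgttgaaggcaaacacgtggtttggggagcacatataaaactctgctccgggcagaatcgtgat
Bmp4 (chr14:46390670-46390919, minus strand): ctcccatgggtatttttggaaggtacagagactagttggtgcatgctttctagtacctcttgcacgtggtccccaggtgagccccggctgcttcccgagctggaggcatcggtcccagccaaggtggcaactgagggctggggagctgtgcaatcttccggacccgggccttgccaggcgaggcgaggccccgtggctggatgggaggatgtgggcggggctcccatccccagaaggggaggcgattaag
Inhba (chr13:16011601-16011850, plus strand): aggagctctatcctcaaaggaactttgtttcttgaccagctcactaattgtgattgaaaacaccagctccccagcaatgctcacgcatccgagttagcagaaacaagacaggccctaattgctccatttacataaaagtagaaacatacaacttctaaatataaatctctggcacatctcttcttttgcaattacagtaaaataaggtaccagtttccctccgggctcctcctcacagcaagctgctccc
Inhbb (chr1:119422249-119422498, minus strand): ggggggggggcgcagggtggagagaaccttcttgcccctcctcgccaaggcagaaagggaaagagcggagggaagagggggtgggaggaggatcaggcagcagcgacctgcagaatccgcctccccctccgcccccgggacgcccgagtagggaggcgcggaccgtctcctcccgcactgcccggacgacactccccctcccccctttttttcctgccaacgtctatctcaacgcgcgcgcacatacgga
Only the Tgfb2 window held CAGAC, at positions -221 and -204 from the start, against 40.9% of 21263 promoter windows of the same length. GGCGCC, a GC-rich element bound by BMP Smads, and AGGTCA (reverse complement TGACCT), an element of retinoic acid receptor sites, were in none of the 4 windows and in 12.3% and 12.8% of all windows, counting both strands.

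Counts of marked endothelial and testicular somatic genes also separated the lists, whereas those of fibroblast and immune markers overlapped. Over all protein-coding genes the mean share with a peak was 42.5% in SSCs and 30.9% in iNSCs. Of 8 endothelial markers, 7, 4 and 6 held a peak in SSCs and 1 in each iNSC list, with Emcn at 0. They were covered over 3669 to 7230 bases in sum in SSCs and 1474 to 1904 in iNSCs. The marker with iNSC peaks was Eng, which went the other way. It had 237, 0 and 946 bases in SSCs and 1904, 1474 and 1904 in iNSCs. Of 10 markers of testicular somatic cells, 6, 7 and 5 held one in SSCs (5116 to 8728 bases) and 2 in each iNSC list (2402 to 3710), and Cyp11a1, Star and Insl3, which mark Leydig cells, were at 0 throughout. Fibroblast and feeder markers stood at 8, 7 and 11 of 12 against 7, 6 and 7 (5164 to 8500 and 12042 to 15191 bases), with Postn at 0. The immune markers stood at 1 of 8 in each SSC list against 1, 0 and 0 (71 to 428 and 0 to 616 bases), with Ptprc at 0. The part of these cells in the ligand pattern was not tested. Neural markers numbered 8, 5 and 7 of 12 in SSCs and 4 in each iNSC list, and Sox1, Fabp7 and Hes5 held no peak in any list.

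Of the 5 extracellular modulators, 2 were marked in SSC libraries only, and in 2 of the 3. Nog and Fst, which encode the BMP antagonist noggin and the activin-binding follistatin, had peaks in SSC replicates 1 and 2 and nowhere else. Nog was covered over 264 and 1335 bases and Fst over 688 and 291. Ltbp1, whose product holds latent TGF-β in the matrix, was marked in all 6 lists, with 480, 1449 and 939 bases in SSCs and 1843, 2140 and 1530 in iNSCs. All 3 iNSC values lay above all 3 SSC values. A region of 150 bases in Ltbp1, 2933 bases before the end of the span, was called with the same edges in the 3 iNSC lists and in no SSC list. Lefty1 and Lefty2, inhibitors of nodal, had no peak.

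The covered bases of all 13192 genes were set against each other by an exact permutation test, two-sided, over the 6 libraries. With 3 libraries against 3 the smallest p is 0.1, which becomes 0.304 after Benjamini-Hochberg adjustment over all genes, so no gene can pass 0.05 and 0 did, adjusted or not. Genes whose 3 values in one group all exceeded the 3 in the other are therefore only counted. Covered bases were higher in SSCs in this sense for 7 pathway genes, the 5 ligands above with Tgfbr1 and Skil, against 15.5% of all genes. They were higher in iNSCs for 10 of the 37, namely Tgfb3, Ltbp1, Tgfbr2, Acvr1b, Bmpr1a, Smad1, Smad2, Smad3, Smad6 and Smad9, against 17.4% of all genes. Among genes with a peak in all 6 lists, 5 of 18 pathway genes and 27.9% of 3940 genes were higher in iNSCs, and 2 of 18 and 8.35% higher in SSCs. The median difference, SSC minus iNSC, was 3.67 bases over the 37 pathway genes and 54 bases over all genes. It was 867.7 for the ligands, -308.5 for the receptors and -879.2 for the Smads.

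Among the type I receptors that SB431542 blocks, Tgfbr1 and Acvr1b differed in opposite directions in the full lists. Tgfbr1, the TGF-β type I receptor gene, was covered over 761, 733 and 460 bases in SSCs and 274 in each iNSC library, and the groups did not overlap. The Tgfbr1 groups did overlap at equal list length and in the better-scoring 50%, where the difference was 109.3 and 91.3 bases. The 274 bases were 1 region, on chromosome 4 from 47386216 to 47386489, called with the same edges in all 6 lists. A further region from 47393247 to 47393489 was called in the 3 SSC lists (243, 97 and 186 bases) and in no iNSC list. Acvr1b, an activin and nodal type I receptor gene, held 1 peak of 2942 bases with the same edges in each iNSC list, ending 6 bases before the end of the span. SSC replicates 1 and 2 had no peak in Acvr1b, and replicate 3 had 1798 bases in 2 pieces inside the same stretch. In the better-scoring 50% no list held an Acvr1b peak. Acvr1c, the third target of the inhibitor, had a single peak in SSC replicate 3.

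Tgfbr2, the TGF-β type II receptor gene, had one of the widest gaps in the pathway. It was covered over 888, 850 and 0 bases in SSCs and 3663, 3663 and 4083 in iNSCs, a mean of 579.3 ± 502.1 against 3803 ± 242.5 (SD, n = 3 each) and a ratio of 6.56 (4.38 to 8.95 without 1 library). In the better-scoring 50% the Tgfbr2 difference was -2049 bases, SSC minus iNSC, and the groups overlapped. A stretch of 2863 bases up to the 3′ edge of the span, on chromosome 9 from 116087695 to 116090557, was filled in each iNSC list, while SSC replicate 2 held 850 bases of it and the other SSC lists none. Tgfbr3, the co-receptor betaglycan, was marked in all 6 lists over 666, 1121 and 208 bases in SSCs and 307, 3518 and 378 in iNSCs, which overlap. A region of 330 bases on chromosome 5 from 107118197 to 107118526 in Tgfbr3 was called in the iNSC lists alone.

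The receptors for BMPs, which the inhibitor spares, also split. Bmpr1a was covered over 176, 474 and 0 bases in SSCs and 1709, 1506 and 2553 in iNSCs, a ratio of 8.87. The ratio rests on small SSC values and was 21.8 without SSC replicate 2 and 5.92 without SSC replicate 3. In the better-scoring 50% the Bmpr1a groups overlapped. The 3 iNSC lists alone held peaks on chromosome 14 between 34412961 and 34414669. Bmpr1b had 5 peaks in SSC replicate 1, 3 in replicate 3 and none elsewhere. Acvr1 was marked in all 6 lists, over 609, 1172 and 1318 bases in SSCs and 1367, 1229 and 1409 in iNSCs, and the lowest iNSC value lay within the SSC range. Bmpr2, the BMP type II receptor gene, carried a region of 1280 bases with identical edges in all 6 lists (chromosome 1, 59867336 to 59868615), and its totals of 1682 to 3776 and 1453 to 4067 bases overlapped. The activin type II receptor genes Acvr2a and Acvr2b and the decoy receptor gene Bambi overlapped between the groups as well.

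The Smads were the most widely marked of the roles with more than 4 genes, with 7 of 8 in all 6 lists, against 29.9% of all genes with a peak. Smad3 differed in where its peaks lay. Covered bases were 38, 574 and 497 in SSCs and 3619 in each iNSC list, a mean of 369.7 ± 289.8 against 3619 (n = 3 each) and a ratio of 9.79 (6.76 to 13.5 without 1 library). The iNSC peak was the same in all 3 lists, from 63646767 to 63650385 on chromosome 9. It reached to within 1 base of the 3′ edge of the span. Its score was 3100 in each list, a value that 15.0% to 17.6% of peaks in the iNSC lists reached or exceeded. No SSC list had a peak there. SSC replicates 2 and 3 instead held peaks of 523 and 469 bases at the gene start, and no iNSC list had one there.

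Smad2, the partner of Smad3, also held a region of each kind. A region of 288 bases, with the same edges in the 3 SSC lists, was in no iNSC list, and a region of 1151 bases, 5991 bases before the end of the span, was in the 3 iNSC lists (1151, 1059 and 952 bases) and in no SSC list. In total Smad2 was covered over 861, 753 and 731 bases in SSCs and 1551, 1459 and 1352 in iNSCs. Smad4, the common partner, was covered over 1038, 569 and 1040 bases in SSCs and 920, 569 and 919 in iNSCs, which overlap.

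Of the BMP Smads, Smad1 and Smad9 covered more bases in iNSCs and Smad5 did not. Smad1 had 1751, 757 and 911 covered bases in SSCs and 1886, 2340 and 2451 in iNSCs, and the region from 79371784 to 79372364 on chromosome 8 was identical in all 6 lists. Smad9 was covered over 615, 0 and 0 bases in SSCs and 1671, 1079 and 1694 in iNSCs. Smad5 was covered over 1203, 921 and 2282 bases in SSCs and 1465 in every iNSC library. Its peak at the gene start was 263, 250 and 246 bases wide in SSCs and 525 in each iNSC list, from the same first base.

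The inhibitory Smads differed from each other. Smad7 was covered over 3608, 4097 and 3482 bases in SSCs and 3189, 4051 and 4039 in iNSCs, and the ranges overlapped. Smad6 had 440, 1335 and 1222 bases in SSCs and 2744, 1572 and 2671 in iNSCs. Among peaks in the upper 50% of scores the Smad6 difference changed sign, to 95.7 bases more in SSCs.

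**Figure D3:**
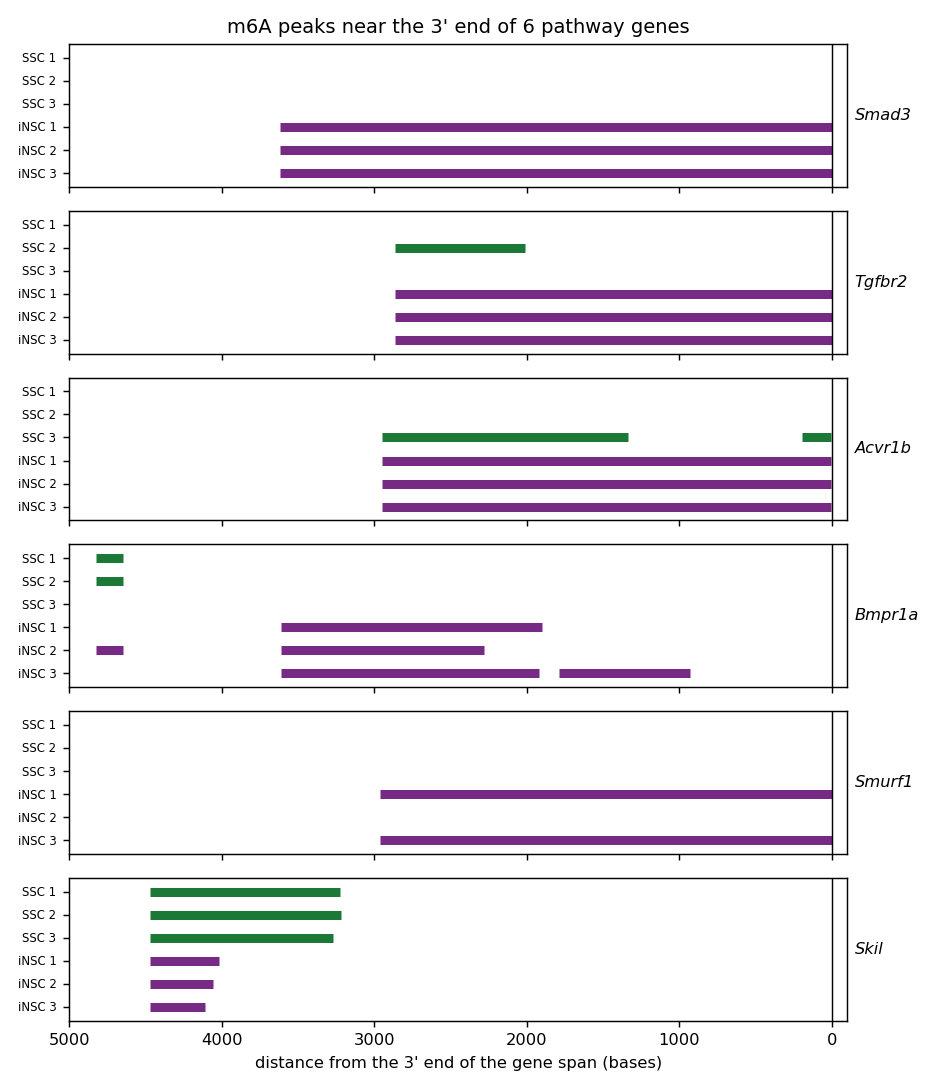
Peaks near the 3′ end of the gene span (x axis, distance in bases, transcript end at the right) for 6 pathway genes, with 1 row per library, SSC in green and iNSC in purple. For Smad3, Tgfbr2 and Acvr1b the iNSC peaks fill the last 2863 to 3619 bases with the same edges in 3 lists, and for Skil the SSC peaks are the longer ones.

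Ski and Skil encode corepressors that bind Smads. Ski was covered almost equally in all libraries, with 3568, 3642 and 3402 bases in SSCs and 3439, 3579 and 3575 in iNSCs, including a region of 1041 bases over the gene start with identical edges in 6 lists. A region of 123 bases in Ski was called in the 3 iNSC lists alone. Skil was the only regulator whose groups did not overlap, with 3447, 3245 and 3298 bases in SSCs against 2680, 2679 and 2677 in iNSCs. The gap lay in its region toward the 3′ end, on chromosome 3 from 31118455 to 31119702, where SSC peaks covered 1245, 1248 and 1198 bases and iNSC peaks 453, 410 and 362, from the same upstream edge. Skil peaks were among the best-ranked in every list, with best percentiles from 90.9 to 99.8.

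Smurf1 was covered over 523, 0 and 199 bases in SSCs and 2962, 0 and 3337 in iNSCs, and the groups overlapped. It held a peak of 2962 bases at its 3′ edge in iNSC replicates 1 and 3, at low percentiles of 7.63 and 3.78. Smurf2 was marked in all 6 lists, and an 85-base region on chromosome 11 from 106849748 to 106849832 was called with the same edges in the 3 SSC lists alone. The Id targets were sparsely marked. Id2 was covered over 1208, 529 and 0 bases in SSCs and 0, 640 and 526 in iNSCs, Id3 over 507 bases in SSC replicate 3, and Id1 in no list.

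Several of these peaks began at an annotated transcription start. RefSeq start sites were at hand for 27 of the 41 genes. A start lay inside a peak for 5, 7 and 8 of the 27 in SSC replicates 1, 2 and 3 and for 6, 6 and 9 in iNSC replicates 1, 2 and 3, against 6.98% to 9.27% and 5.64% to 9.28% of 17492 genes. A peak edge fell on the annotated start base itself for 4, 5 and 7 of the 27 in SSCs and 4, 4 and 5 in iNSCs. Over the 17492 genes this share was 4.62% to 5.98% in SSCs and 3.60% to 5.98% in iNSCs. For 6 pathway genes the 5′ edge of a peak fell on that base in at least 2 lists. Their sequences from 70 bases before the start are shown to place these edges, with the first 30 transcribed bases in capitals.
Tgfb1 (chr7:25686932-25687031, plus strand): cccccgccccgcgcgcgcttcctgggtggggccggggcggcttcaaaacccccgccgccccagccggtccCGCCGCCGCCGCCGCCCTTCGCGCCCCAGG
Tgfbr1 (chr4:47386146-47386245, plus strand): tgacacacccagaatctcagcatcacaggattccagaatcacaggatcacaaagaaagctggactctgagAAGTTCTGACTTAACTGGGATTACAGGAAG
Tgfbr2 (chr9:116175334-116175433, minus strand): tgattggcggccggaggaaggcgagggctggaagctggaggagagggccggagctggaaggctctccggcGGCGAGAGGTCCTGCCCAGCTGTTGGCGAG
Smad3 (chr9:63757965-63758064, minus strand): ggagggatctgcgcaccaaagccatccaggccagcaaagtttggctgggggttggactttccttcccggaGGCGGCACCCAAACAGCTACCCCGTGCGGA
Smad5 (chr13:56702982-56703081, plus strand): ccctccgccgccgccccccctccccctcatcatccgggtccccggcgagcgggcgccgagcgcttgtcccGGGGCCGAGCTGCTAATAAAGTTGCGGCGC
Smad6 (chr9:64022030-64022129, minus strand): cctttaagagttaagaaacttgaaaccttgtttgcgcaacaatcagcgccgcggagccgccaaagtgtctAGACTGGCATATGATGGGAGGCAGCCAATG
The edge lay on the start in all 6 lists for Tgfbr1 and Smad5, in 5 for Smad6 (all but SSC replicate 1), in 4 for Tgfb1, and in 2 each for Smad3 (SSC replicates 2 and 3) and Tgfbr2 (SSC replicate 1 and iNSC replicate 3). The Tgfbr1 start is internal, 32994 bases into the gene span. GGACT, the commonest form of the m6A consensus, was on the transcript strand in the first 50 transcribed bases of none of the 6 and of 5.86% of all 21263 windows. Antibodies to m6A are also known to bind m6Am, a related mark on an A next to the cap. The lists cannot tell the marks apart at a start. The annotated first base was A for Tgfbr1 and Smad6 and C or G for the others, against A in 37.4% of all windows.

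**Figure D4:**
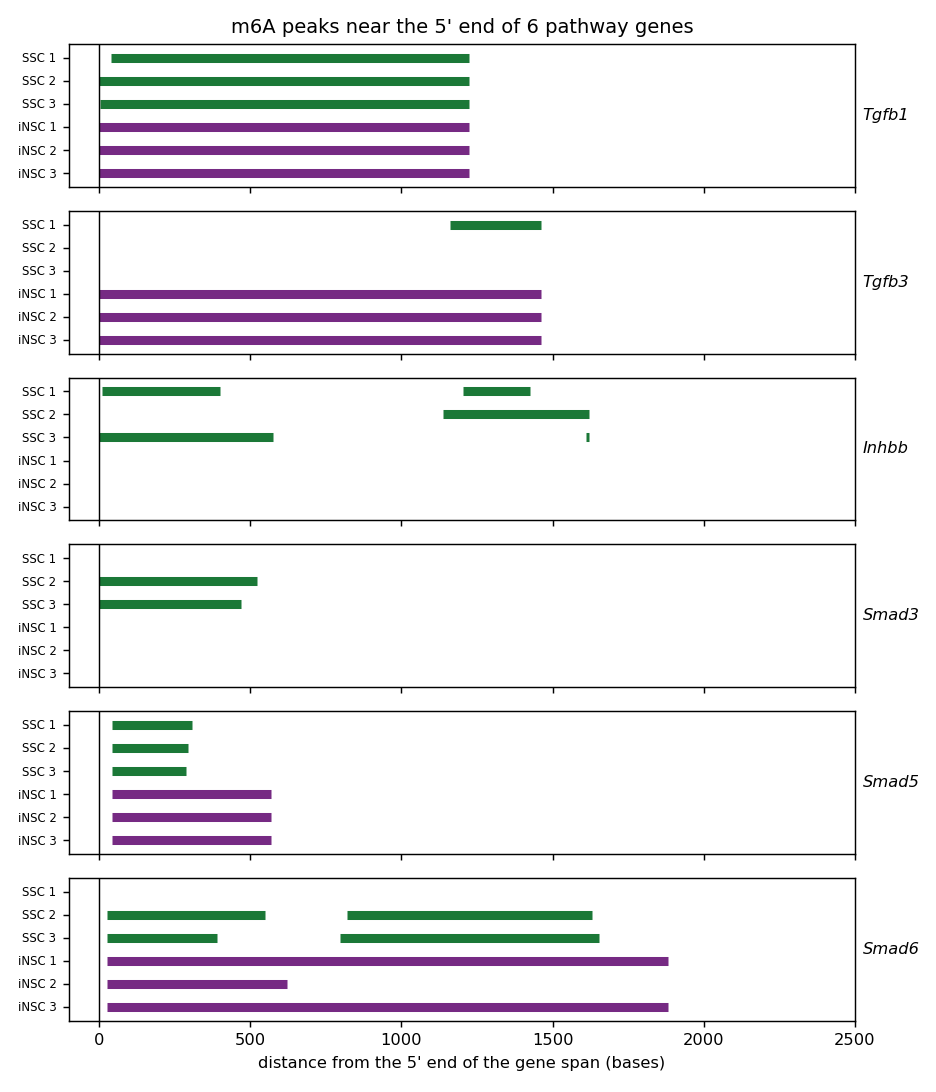
Peaks near the 5′ end of the gene span (x axis, distance in bases) for 6 pathway genes, with 1 row per library, SSC in green and iNSC in purple. Tgfb3 is covered over 1461 bases in each iNSC list and over 300 in SSC replicate 1, while the start of Smad3 is covered in SSC replicates 2 and 3 alone.

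Merging the peaks of all lists gave 138 regions in the 37 genes. Of these, 16 were called in all 6 lists, 8 in the 3 SSC lists alone and 7 in the 3 iNSC lists alone, against 10.1%, 5.61% and 3.37% of all 47067 regions. The SSC-only regions lay in the 5 SSC-only ligands, Tgfbr1, Smad2 and Smurf2. The iNSC-only regions lay in Ltbp1, Tgfbr3, Acvr1, Bmpr1a, Smad2, Smad3 and Ski. Of the last 2 counts, the SSC-only one was 13 without SSC replicate 1 and 14 without SSC replicate 2, where 9.10% and 9.70% of all regions were SSC-only. The iNSC-only one was 13 without SSC replicate 1, against 5.21% of all regions. Regions with identical edges in all 6 lists numbered 5, in Tgfbr1, Bmpr2, Smad1, Smad5 and Ski. Identical edges were not counted over all regions, so this number has no background beside it.

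Peaks of the pathway genes were wider in iNSCs, as in the lists as a whole, while their numbers overlapped. They numbered 84, 55 and 67 in SSCs and 47, 52 and 59 in iNSCs, and covered 37451, 37097 and 36257 bases against 47506, 48156 and 49424. Where the strand was known, the median width was 268, 522.5 and 339 bases in SSCs and 800, 689 and 568 in iNSCs, against 188 to 201 and 355 to 421 over all genes. The last 2000 bases of the span held 17.8% ± 2.73 of the pathway's peaks in SSCs and 24.1% ± 1.27 in iNSCs (n = 3 each), close to the 16.6% ± 1.38 and 22.6% ± 1.33 of all genes. The first 500 bases held 12.4% ± 1.38 and 11.3% ± 2.05, against 9.55% ± 2.18 and 9.66% ± 2.31.

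A second list of 78 pathway genes, compiled from general knowledge of the pathway, had peaks in 42, 33 and 39 genes in SSCs and 32, 32 and 33 in iNSCs. Its mean shares were 48.7% in SSCs and 41.5% in iNSCs, against 42.5% and 30.9% over all protein-coding genes. For the 41 genes above they were 75.6% and 61.8%. Of the 59 genes of the second list with a peak, 6 were SSC-only and 4 were iNSC-only. Over all genes with a peak these shares were 11.3% and 2.22%. Covered bases were higher in SSCs for 7 and in iNSCs for 13 of the 59, against 15.5% and 17.4% of all genes. The SSC-only genes with the best-ranked peaks were Id4, the Smad inhibitor gene Pmepa1, the cell cycle inhibitor gene Cdkn2b, the thrombospondin gene Thbs1 and Fstl1. Thbs1, whose product can activate latent TGF-β, was covered over 2035, 1997 and 2330 bases and Pmepa1 over 1421, 1325 and 1174, with none in iNSCs. The 4 iNSC-only genes were the BMP antagonist gene Grem1, the ligand gene Gdf5, the latent TGF-β binding protein gene Ltbp2 and the corepressor gene Tgif2. Gdf5 was covered over 2249, 2112 and 2266 bases and Grem1 over 1481, 1481 and 1563, with none in SSCs.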

How the data were processed

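Of 12 labelled samples, the 6 immunoprecipitation libraries were used and the 6 inputs are not used here. Per the labels' protocols, poly(A) RNA in fragments of about 200 nt was pulled down with an m6A antibody and sequenced from directional libraries. Trimming and alignment tools listed are HISAT2 2.0.4 and cutadapt 1.9.3, with mm9, per the submitters' processing notes. The peak caller is not given in the sources used here. The authors deposited 1 peak list per library with a score per peak, without unit or read counts, so depth and detection limits are unknown. Coordinates are on GRCm38, 1-based, because 4.90% to 12.0% of peaks had an edge on a GRCm38.p6 gene edge, against 0.00807% to 0.0187% after a shift of 10000 bases.

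Each peak was placed in the protein-coding gene it overlapped by at least 1 base on the gene's strand (Python 3.11.15, pandas 2.3.3). Strand came from the RefSeq promoter table or, failing that, from over 90% of at least 3 peaks. The 2 sources were the same for 99.9% of 7490 genes. Of 118075 peaks, 115165 were placed, 1171 were ambiguous, 445 lay on the other strand and 1294 in no gene. No pathway peak was ambiguous. Covered bases are those of the span under peaks. The code of the permutation test and calls was run on simulated lists with complete planted differences between the groups. That run checks the code and gives no error rate for real lists. Names follow a rule: all 41 genes, and of the 78 others up to 5 SSC-only and 5 iNSC-only genes by the lowest within-list percentile. Members and lists were chosen with earlier results of these data known. Replicates are not stated to be separate cultures, so p-values reflect library-to-library spread that may be technical.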

Additional observations from a re-analysis of the deposited data

How the results depend on the processing

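Results were recomputed in the better-scoring 50% of each list, at equal list length, with an overlap of 50% of the shorter, with peaks of at least 100 bases, with a peak in 2 of 3 libraries, with the replicate number as a block, and without each library. In the better-scoring 50% the gap in the share of genes with a peak was 1.63 points (6.21 over all genes), with 1 SSC-only and 1 iNSC-only gene (10.0% and 4.52% of all genes), 2 and 6 genes with more covered bases in SSCs and iNSCs (13.6% and 17.7%), and 2 and 4 regions in SSCs and iNSCs alone (7.74% and 4.88% of all regions). At equal length these values were -7.32 points (0.521), 1 and 3 genes (6.92% and 6.91%), 2 and 10 genes (9.19% and 27.1%), and 2 and 13 regions (4.28% and 8.34%). The equal-length cut falls mostly on the SSC lists, which favours iNSC calls by construction, relative to the full lists. In the full lists, where the SSC lists are longer, 11.3% of all genes were SSC-only and 2.22% iNSC-only. Covered-base calls were lost under both for Tgfb2, Bmp2, Bmp4, Inhbb, Tgfbr1 and Smad9, and in the better-scoring 50% also for Ltbp1, Tgfbr2, Acvr1b, Bmpr1a and Smad6. Tgfb2 under both, and Acvr1b and Smad9 in the better-scoring 50%, gave no value. A peak in 2 of 3 libraries gave 9 SSC-only genes (adding Bmp7, Nog, Fst and Bmpr1b, against 22.6% of all genes) and 21 SSC-only regions (16.7%), and the width minimum left 5 SSC-only regions (5.61%). Leaving out 1 library gave gaps of 11.4 to 15.0 points (10.2 to 14.3 over all genes) and 5 to 7 SSC-only genes (11.6% to 17.5%). It gave 0 to 1 iNSC-only genes (Smad9 without SSC replicate 1, Acvr1b without SSC replicate 3), against 2.40% to 4.03%. SSC-only regions numbered 8 to 14 (5.88% to 9.70% of all regions) and iNSC-only regions 7 to 13 (3.98% to 5.21%). Then 7 to 10 genes had more covered bases in SSCs (16.3% to 24.1% of all genes). For iNSCs the count was 10 to 12 (19.3% to 21.1%). The Smad6 difference, SSC minus iNSC, turned to 95.7 bases in the better-scoring 50%. With the replicate number as a block, 7 genes covered more bases in SSCs and 13 in iNSCs in all 3 same-numbered pairs. Over all genes with a peak these shares were 17.3% and 20.2%. Deviations of same-numbered libraries correlated at 0.0152, -0.0365 and 0.132 over 3940 genes, so the numbers were not taken as pairs. The lists hold no read counts, so whether a missing peak reflects depth was not tested.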
